A study of Mus musculus with 48 samples.

Results

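IGHD is the constant gene of the delta heavy chain, the chain that makes a B cell receptor (BCR) an IgD. It is 1 of the 8 heavy-chain constant genes called in BCR libraries of the lacrimal gland (LG) and the spleen of 24 C57BL/6 (B6) mice, 48 libraries in all. Its members were the sequences whose constant region was called IGHD. There were 660098 such sequences in the spleen, carrying 663689 of 10518641 counts (6.31%), and 630 in the LG, carrying 674 of 2595348 counts (0.0260%). A count is 1 unique molecular identifier (UMI) with its consensus sequence, and it is meant to stand for 1 reverse-transcribed RNA molecule. LG libraries held 40105 to 264365 counts in total and spleen libraries 71859 to 2032338.

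The NOD-FMT group held 10 B6 mice that received feces of 30 NOD.B10.H2b mice, a strain with autoimmune dry eye, older than 20 weeks, by daily gavage for 3 weeks from the age of 5 weeks. The PBS-T group held 9 B6 mice gavaged with PBS on the same schedule. Both groups had antibiotics in the drinking water beforehand, so this pretreatment is shared and is not what the comparison between them tests. The NC group held 5 untreated mice of the same cohort, which received neither feces nor PBS and whose age was not given in the sources used here. The feces of the donors had been combined, so the recipients are repeats of 1 transfer and not of separate donors.

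A mature naive B cell carries IgM and IgD together. Both come from the same rearranged V(D)J exon, since 1 long primary transcript is spliced either to the mu or to the delta constant exons. IgD falls after activation and is lost when the cell switches to IgG, IgE or IgA, and it is low on marginal zone and B-1 B cells, which keep IgM. Plasma cells that secrete IgD are rare in mice. The LG is a mucosa-associated gland in which most antibody RNA comes from IgA plasma cells.

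IGHD was told from IGHM by the reverse transcription primer and by the few bases between it and the J segment. In GRCm38 with GENCODE M21, Ighd lies on the minus strand of chromosome 12 at chr12:113406604-113416324, and Ighm, also on the minus strand, ends 2233 bases upstream of it. The first exons, which encode the CH1 domain, are chr12:113416043-113416324 for Ighd and chr12:113422416-113422730 for Ighm. Their first 60 bases are shown in the sense direction because they hold the constant-region bases that a read covers, with the primer sites in capitals.
Ighd CH1, chr12:113416265-113416324: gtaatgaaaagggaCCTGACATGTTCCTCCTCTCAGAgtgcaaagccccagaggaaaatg
Ighm CH1, chr12:113422671-113422730: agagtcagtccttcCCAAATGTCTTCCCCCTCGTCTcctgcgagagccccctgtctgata
Both sites start after 14 bases of the exon and lie in coding sequence. The IGHD primer matched its site in 23 of 23 bases and had at least 8 mismatches to every site in the 7 other constant genes. The IGHM primer matched in 22 of 22 bases and had at least 7 mismatches elsewhere. Relative yields of these primers were not measured, so a ratio of IGHD to IGHM counts is not a ratio of transcripts.

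IGHD was an abundant isotype of the spleen and a trace in the LG. In the spleen its share of counts was 6.04% ± 1.46 (SD, n = 24), with a lowest value of 3.702%, a median of 6.01% and a highest value of 8.60%. Removal of sequences shared between mice had taken 66.6% of all counts but 2.63% of IGHD counts of the spleen of PBS-T mouse 6, whose IGHD share was 1.45% before and 4.22% after it. In the LG the mean was 0.0216% ± 0.0441 (SD, n = 24), with a lowest value of 0.000765%, a median of 0.00861% and a highest value of 0.214%. The share was lower in the LG than in the spleen in 24 of 24 mice, and the ranges of the tissues did not overlap. The mean difference of log2(percent + 0.01) was -8.06 (permutation test by sign flips, two-sided, n = 24, p = 1e-05, the smallest that 100000 resamples can give; adjusted p = 5.67e-05 over 17 tests). Without the added constant of 0.01, the spleen share was on geometric average 685-fold the LG share, and the ratio in single mice ran from 32.7 to 5888. In bulk RNA, fewer IGHD-expressing cells and less IGHD RNA per cell cannot be told apart, and a share also falls where another isotype rises. IGHA, the constant gene of IgA, held a median of 96.5% of LG counts against 11.7% of spleen counts.

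**Figure D1:**
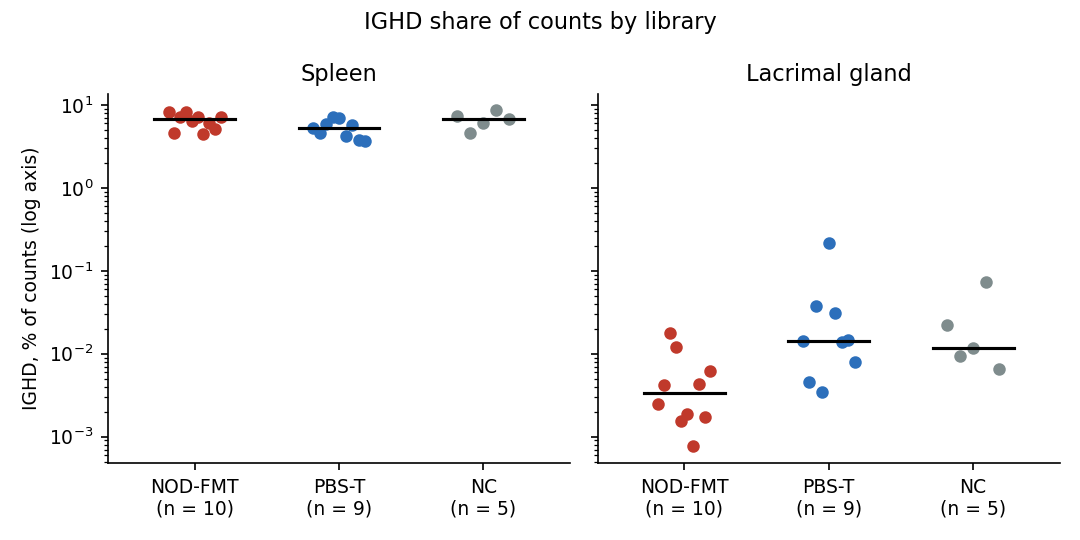
The share of counts with the IGHD constant gene, in percent on a log axis, is plotted for each of the 24 spleen libraries (left) and the 24 LG libraries (right) by group. Each point is 1 mouse and each bar is the median of its group. Spleen points lie between 3.702% and 8.60%, and LG points lie between 0.000765% and 0.214%.

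Within the LG, IGHD was scarcer in NOD-FMT mice than in either other group. In NOD-FMT mice the share of counts had a lowest value of 0.000765%, a median of 0.00332% and a highest value of 0.0179%. In PBS-T mice the lowest value was 0.00347%, the median 0.0143% and the highest 0.214%. In the untreated NC mice the values were 0.0223%, 0.00928%, 0.0118%, 0.0740% and 0.00664%. The ranges overlapped, but 5 of 10 NOD-FMT mice lay below every PBS-T mouse, 8 of 10 lay below every NC mouse, and 3 of 9 PBS-T mice lay above every NOD-FMT mouse.

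The means were 0.00529% ± 0.00549 (SD, n = 10) in NOD-FMT, 0.0379% ± 0.0672 (SD, n = 9) in PBS-T and 0.0248% ± 0.0282 (SD, n = 5) in NC mice. NOD-FMT minus PBS-T was -1.06 on the scale of log2(percent + 0.01) (exact permutation test, two-sided, p = 0.00690, adjusted p = 0.0206). NOD-FMT minus NC was -0.97 (exact permutation test, p = 0.00999, adjusted p = 0.0243), and -0.581 without NC mouse 4 (p = 0.0460). PBS-T and NC differed by 0.09 (exact permutation test, p = 0.904). With no added constant, the geometric mean of PBS-T was 4.80-fold and that of NC 4.79-fold the NOD-FMT value.

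These shares rest on few molecules. IGHD counts per LG library were 6, 11, 11, 7, 2, 1, 2, 4, 3 and 10 in NOD-FMT mice 1 to 10. They were 6, 4, 15, 2, 465, 17, 7, 12 and 9 in PBS-T mice 1 to 9, and 18, 6, 9, 42 and 5 in NC mice 1 to 5. Thus the 2 counts of NOD-FMT mouse 7 gave a share of 0.000765% with a 95% Wilson interval from 0.00021% to 0.00279%, and the 465 of PBS-T mouse 5 gave 0.214% with an interval from 0.196% to 0.235%. Such intervals cover counting error only. The totals also differed, with a mean of 149620 counts in NOD-FMT, 82836 in PBS-T and 70725 in NC libraries. The IGHD counts themselves, not divided by the total, differed by -1.43 on the log2 scale between NOD-FMT and PBS-T (exact permutation test, p = 0.0748) and by -1.41 between NOD-FMT and NC (p = 0.0559), so these calls were lost without the division. This alternative was chosen after the data were seen. With counts of at least 2 both calls on the share were lost as well, and the differences were far smaller. Few LG IGHD sequences remained in that setting.

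The file names of 6 NOD-FMT, 4 PBS-T and 1 NC library of the LG mark them as merged, a word the sources used here do not explain. In these libraries 333 to 887 rows repeated a sequence with the same constant gene, against 0 in every other library. The repeated rows were kept, and whether they count the same molecules more than once was not tested. Among the merged libraries the NOD-FMT minus PBS-T value of the share was -1.08 (exact permutation test, p = 0.0238). Among the others it was -1.10 (p = 0.159), of the same size but past no threshold. Leaving out any single mouse kept the difference between -1.204 and -0.696, with p between 0.00233 and 0.0156 by the exact permutation test. Without PBS-T mouse 5 the PBS-T mean was 0.0159% ± 0.0122 (SD, n = 8).

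Counted by clonotypes, that is by distinct combinations of V gene, J gene and HCDR3 (the third complementarity-determining region, the most variable loop) in amino acids, NOD-FMT was again lowest in the LG. IGHD made up 0.503% ± 0.432 of clonotypes in NOD-FMT (SD, n = 10), 1.31% ± 0.739 in PBS-T (SD, n = 9) and 1.58% ± 1.45 in NC mice (SD, n = 5). NOD-FMT minus PBS-T was -1.60 on the log2 scale (exact permutation test, p = 0.00726, adjusted p = 0.0206), and 6 of 10 NOD-FMT mice lay below every PBS-T mouse, whose lowest value was 0.319%. It was -1.98 among the merged libraries (exact permutation test, p = 0.0571) and -1.29 among the others (p = 0.0714). Thinning every LG library to 40105 counts gave -2.02 (exact permutation test, p = 0.00266). The thinned NOD-FMT libraries then held only 0.2 (mouse 5) to 6 (mouse 3) IGHD clonotypes as means of 5 draws. This value therefore rests on very few molecules and on the added constant of 0.01.

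The share of IGHD among unswitched counts, IGHM plus IGHD, asks whether IGHD was scarce beyond what unswitched RNA as a whole was. In the LG it averaged 0.705% ± 0.591 (SD, n = 10) in NOD-FMT and 1.76% ± 2.57 (SD, n = 9) in PBS-T mice. The groups overlapped, with medians of 0.539% and 0.522%, and the difference of -1.05 percentage points was within the spread (exact permutation test, p = 0.260). PBS-T mouse 5, at 7.80%, carried much of it, since leaving it out gave -0.297 (p = 0.582 by exact permutation). Among merged libraries alone, described above, it was 0.0542. In NC mice the IGHD share of unswitched LG counts averaged 2.36% ± 2.32 (SD, n = 5). Its lowest value was 0.264%, its median 2.01% and its highest 6.30%, against a highest value of 1.61% in NOD-FMT mice. NC was not tested on this measure, so a scarcity relative to untreated mice was not decided. IGHM, the constant gene of IgM, held a median of 0.778% of LG counts in NOD-FMT and 3.18% in PBS-T mice. Its share was 25.0% in PBS-T mouse 2 and 48.9% in PBS-T mouse 9, where IGHD was at 0.00453% and 0.00794%.

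The LG library of PBS-T mouse 5 stood apart. It held 465 of the 674 LG IGHD counts and 17213 clonotypes of all isotypes, against 560 to 2504 in the other LG libraries. IGHD made up 7.80% of its unswitched counts, within the spleen range of 4.65% to 11.1%, as was the 6.30% of NC mouse 4. Its 411 IGHD clonotypes were many and small, the largest with 5 of 465 counts (1.08%), and 77.2% of its IGHD counts carried no mismatch to the germline V gene (Wilson interval 73.2% to 80.8%). In the other 23 LG libraries together, 85.2% of 209 counts were unmutated, spread over 201 clonotypes. This pools molecules of mice of all groups, and single libraries, most with few counts, ran from 0% to 100%, so no interval is set on it. Removal of sequences shared between mice had taken 39.8% of the counts of this library, the highest loss in the LG, but only 1 of its IGHD counts, so that its IGHD share was 0.129% before and 0.214% after it.

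Few LG IGHD clonotypes were found again in the same mouse's spleen. Of 612, 8 were, 1 as IGHD and 7 as IGHM, and none of the 630 IGHD sequences was identical to an IGHD sequence of that spleen. For PBS-T mouse 5, whose 411 clonotypes make up most of these, 5 were in its own spleen against a median of 6 and a highest number of 19 in the spleens of other mice. For IGHM the number in the own spleen was 1117 of 4872 over all mice and 38 of 1346 for PBS-T mouse 5. Of the 1117, PBS-T mice 9 and 2 gave 274 and 136. The number of IGHM clonotypes in other mice's spleens was not determined, and a mean of 77.4% of LG IGHM but 98.6% of LG IGHD sequences had a count of 1. The IGHD and IGHM numbers are therefore not a like comparison. In the LG itself 5 of the 612 were also seen as IGHM. In PBS-T mouse 5, IGHJ4 and IGHJ2 were used almost equally, by 128 and 126 of its 411 IGHD clonotypes (31.1% and 30.7%). In the other 23 libraries together, IGHJ4 was used by 36.8% and IGHJ2 by 29.9% of 201 clonotypes, pooled over mice of all groups. IGHV1-26 was the most frequent V gene of PBS-T mouse 5 with 27 of 411 clonotypes (6.57%).

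In the spleen the direction between the groups was the opposite, and smaller. IGHD made up 6.47% ± 1.37 of counts in NOD-FMT (SD, n = 10), 5.24% ± 1.28 in PBS-T (SD, n = 9) and 6.65% ± 1.51 in NC mice (SD, n = 5). The lowest, median and highest values were 4.50%, 6.75% and 8.24% in NOD-FMT and 3.702%, 5.33% and 7.05% in PBS-T mice. The NC values were 7.40%, 4.56%, 5.99%, 8.60% and 6.71%. The groups overlapped, with 5 of 10 NOD-FMT mice above every PBS-T mouse. NOD-FMT minus PBS-T was 0.31 on the log2 scale and did not pass the threshold (exact permutation test, p = 0.0629, adjusted p = 0.119). This call was not stable. The unadjusted threshold was passed without NOD-FMT mouse 2 or 7 or PBS-T mouse 4 or 5 (lowest p = 0.0314 by the exact permutation test), by mean ranks (p = 0.0435), with counts of at least 2 (0.727, p = 0.0432) and without the 3 spleens of most mutated IGHD (0.381, p = 0.0355). The threshold was also not passed between NOD-FMT and NC, -0.04 (exact permutation test, p = 0.828), or between PBS-T and NC, -0.35 (p = 0.0979), the latter being -0.479 and past it without NC mouse 2. Over the 24 spleens the isotype shares that ordered the mice most like the IGHD share were those of IGHA (Spearman rho 0.38) and IGHG1 (0.36), and IGHM was the least alike (-0.39). These are shares of 1 total in the same libraries, given as a description.

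As a share of unswitched counts, IGHD was higher in NOD-FMT spleens by the unadjusted test. It made up 8.70% ± 1.89 of IGHM plus IGHD counts in NOD-FMT (SD, n = 10) and 6.68% ± 1.79 in PBS-T mice (SD, n = 9), a difference of 2.02 percentage points (exact permutation test, p = 0.0310, adjusted p = 0.0659 over 17 tests). The lowest, median and highest values were 5.55%, 8.68% and 11.1% in NOD-FMT and 4.65%, 6.75% and 9.41% in PBS-T mice, and the NC values were 10.3%, 6.44%, 7.83%, 11.1% and 8.62%. The call was lost when any 1 of NOD-FMT mice 1, 3, 4 and 6 or of PBS-T mice 6, 8 and 9 was left out, with a difference of at least 1.76 and p up to 0.0593 by the exact permutation test. It was also lost over sequences with a count of 1, where the difference was 2.74 points (exact permutation test, p = 0.117). With counts of at least 2, where few IGHD sequences remained, the call was lost too and the difference was far smaller. The lowest 3 PBS-T values, 4.69%, 4.73% and 4.65%, belonged to mice 6, 8 and 9. In mouse 6 a single IGHM clonotype held 28038 counts, and in mouse 8 IGHM was the most mutated of all spleens; the part of either in the difference was not tested.

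IGHD clonotypes were 18.7% ± 3.95 of all clonotypes in NOD-FMT (SD, n = 10), 16.3% ± 2.64 in PBS-T (SD, n = 9) and 17.1% ± 4.96 in NC mice (SD, n = 5). NOD-FMT minus PBS-T was 0.18 on the log2 scale (exact permutation test, p = 0.210). It passed the unadjusted threshold without NOD-FMT mouse 2, whose share of 10.03% was the lowest of its group, at 0.28 (exact permutation test, p = 0.0161). Nearly all IGHD sequences were seen once. Between 99.05% and 99.9% of the IGHD sequences of a spleen had a count of 1, against 80.5% to 90.9% of IGHM sequences, and the highest count of an IGHD sequence ranged from 2 to 94.

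**Figure D2:**
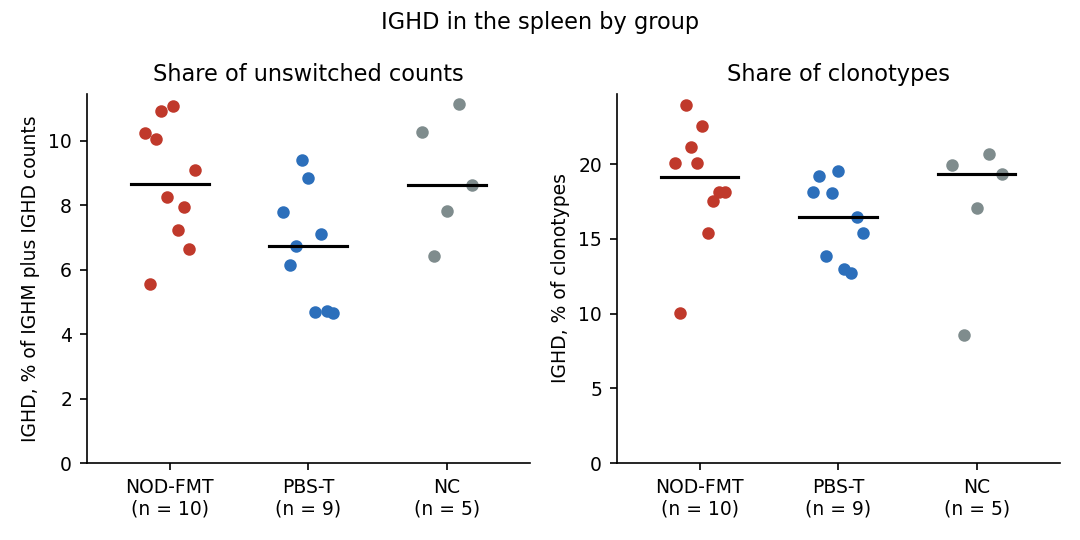
IGHD in the spleen is plotted as a percent of IGHM plus IGHD counts (left) and as a percent of all clonotypes (right), by group. Each point is 1 mouse, each bar is the median of its group, and both axes start at 0. On the left, the NOD-FMT points run from 5.55% to 11.1% and the PBS-T points from 4.65% to 9.41%. On the right, the NOD-FMT point at 10.03% and the NC point at 8.57% lie apart from the rest of their groups.

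The tissue difference itself differed between the groups. This combines the LG group difference of -1.06 and the spleen group difference of 0.31 given above, from the same libraries, and is not an independent result. The LG value of log2(percent + 0.01) minus that of the same mouse's spleen was -8.76 ± 0.41 in NOD-FMT (SD, n = 10) and -7.40 ± 1.15 in PBS-T mice (SD, n = 9). The median LG share was 0.00332% in NOD-FMT, below the added 0.01, and 0.0143% in PBS-T mice, so the small NOD-FMT SD depends on the constant. With no added constant, the spleen share was on geometric average 1843-fold the LG share in NOD-FMT, 309-fold in PBS-T and 396-fold in NC mice. Single mice then ran from 403 to 5888 in NOD-FMT and from 32.7 to 2034 in PBS-T. With the constant, NOD-FMT minus PBS-T was -1.37 (exact permutation test of the group labels, two-sided, p = 0.000801, adjusted p = 0.00340). It was -1.60 over mice with a merged LG library (exact permutation test, p = 0.00476) and -1.18 over the others (p = 0.127).

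IGHD sequences of the spleen were more often unmutated than IGHM sequences. In the 24 spleens 85.1% ± 7.14 of IGHD counts (SD) matched the germline V gene without a mismatch, against 73.4% ± 9.04 of IGHM counts. The unmutated share was higher for IGHD in 23 of 24 spleens, by 11.6 percentage points on average (permutation test by sign flips, n = 24, p = 1e-05, the smallest possible, adjusted p = 5.67e-05). The exception was NC mouse 2, with 67.6% for IGHD and 70.1% for IGHM. The mean number of mismatches was nevertheless higher for IGHD than for IGHM in 4 spleens, with 1.62 and 1.42 in NOD-FMT mouse 2, 1.43 and 1.18 in NC mouse 2, 1.25 and 1.21 in PBS-T mouse 7, and 0.742 and 0.608 in PBS-T mouse 6. The gap in the unmutated share was widest in PBS-T mouse 8, where 84.1% of IGHD but 46.2% of IGHM counts were unmutated, and in PBS-T mouse 2, with 91.4% and 55.1%. The difference was 10.2 points in NOD-FMT (exact permutation test, n = 10, p = 0.00195), 14.9 in PBS-T (n = 9, p = 0.00391) and 8.50 in NC mice (n = 5, p = 0.125, where 0.0625 is the smallest possible).

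**Figure D3:**
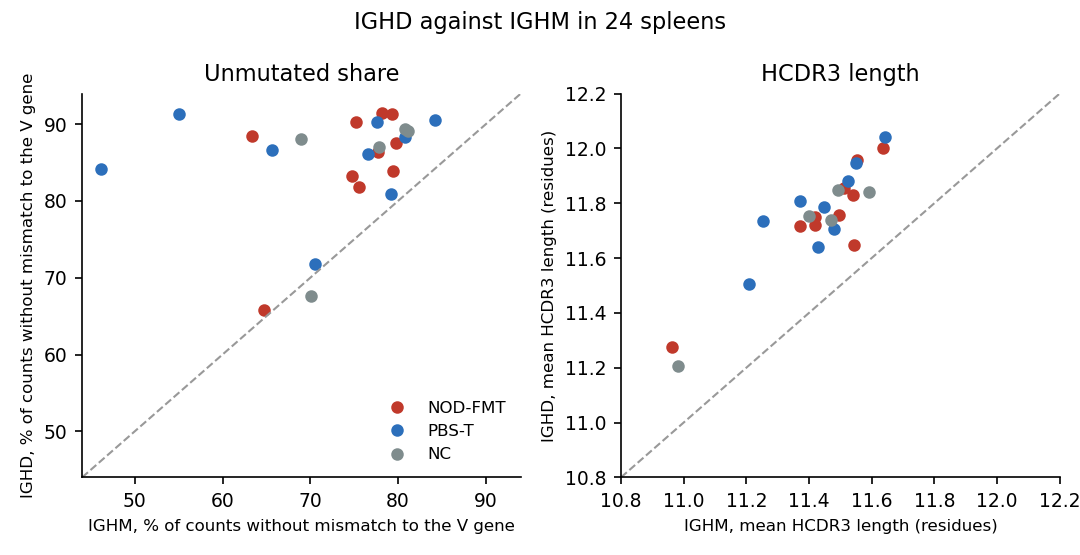
IGHD (vertical axis) is plotted against IGHM (horizontal axis) of the same spleen for the percent of counts without a mismatch to the V gene (left) and the mean HCDR3 length of clonotypes in residues (right). Each point is 1 of 24 spleens, colored by group, and the dashed line marks equal values. On the left 23 of 24 points lie above the line, and on the right 24 of 24 do.

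The unmutated share of IGHD did not follow the treatment. It was 85.0% ± 7.56 in NOD-FMT (SD, n = 10) and 85.6% ± 6.15 in PBS-T mice (SD, n = 9), a difference of -0.55 points (exact permutation test, p = 0.861) whose sign turned when NOD-FMT mouse 2 or any of PBS-T mice 1, 2 and 5 was left out. Of NC mice, 89.1%, 67.6%, 87.1%, 89.4% and 88.1% of IGHD counts were unmutated. Instead 3 spleens, 1 in each group, stood apart from the other 21: NOD-FMT mouse 2 with 65.7%, NC mouse 2 with 67.6% and PBS-T mouse 7 with 71.8%. The other 21 lay between 80.9% and 91.4%.

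In those 3 spleens the rise lay mainly in IGHD sequences with several mismatches. The share of IGHD counts with 5 or more mismatches was 13.0%, 11.6% and 9.70% in NOD-FMT mouse 2, NC mouse 2 and PBS-T mouse 7, against 0.485% to 4.95% in the other 21. Those with 2 to 4 mismatches were at 11.4%, 10.6% and 8.70%, against at most 4.83% elsewhere. Counts with exactly 1 mismatch were at 9.89%, 10.2% and 9.76%, against 7.06% to 9.98% elsewhere. Those with 5 or more mismatches belonged to 889, 412 and 1176 clonotypes in the same order, and the largest of these held at most 0.586% of them. Lineages of related clonotypes were not reconstructed. IGHM of the same spleens had 11.5%, 8.99% and 8.74% of counts with 5 or more mismatches, inside the range of 1.94% to 18.1% of the other 21 but above their median of 3.85%. Of the other 21, only PBS-T mouse 8 (18.1%) and PBS-T mouse 2 (11.6%) were higher, and the next was NOD-FMT mouse 9 with 6.94%. The rise in these 3 spleens was therefore not particular to IGHD. In these 3 spleens IGHD was also a smaller share of clonotypes, at 10.03%, 8.57% and 12.7% against 13.0% to 23.96% elsewhere. A larger share of their IGHD clonotypes also appeared with a switched isotype, 2.36% to 2.73% against 0.0754% to 1.81%. Their total counts, 151402, 78315 and 217535, were in the lower part of the spleen range, and the part of depth or tissue sampling was not tested.

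**Figure D4:**
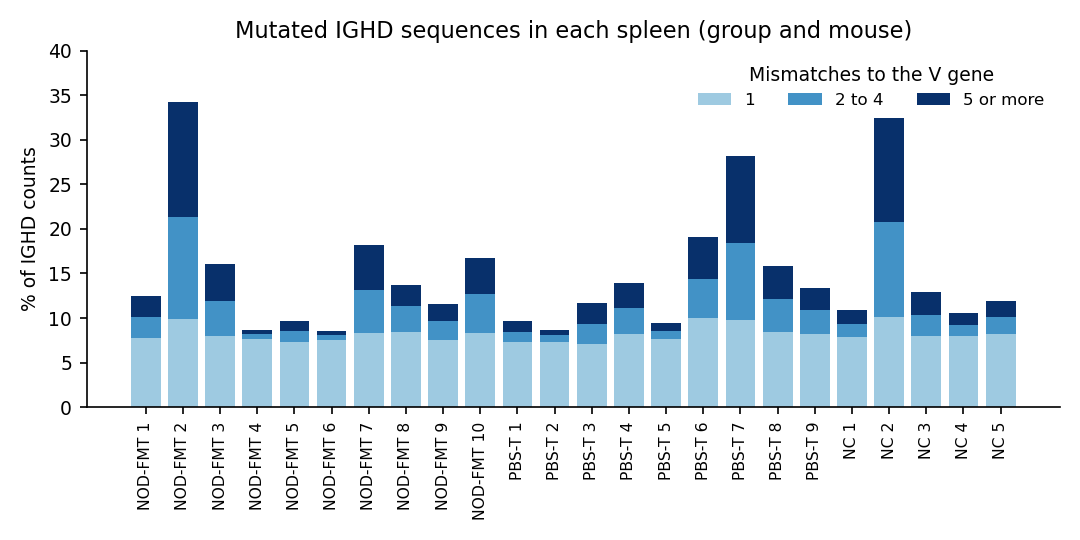
Stacked bars give the percent of IGHD counts of each spleen with 1, with 2 to 4 and with 5 or more mismatches to the germline V gene, by group and mouse. The vertical axis starts at 0, and the rest up to 100% had no mismatch. The class with 5 or more reaches 13.0%, 11.6% and 9.70% in NOD-FMT mouse 2, NC mouse 2 and PBS-T mouse 7 and stays at 4.95% or below in the other 21 spleens.

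HCDR3 loops of IGHD clonotypes were longer than those of IGHM clonotypes of the same spleen. The mean length was 11.75 ± 0.20 residues for IGHD and 11.43 ± 0.17 for IGHM (SD, n = 24), a difference of 0.32 residues in the same direction in 24 of 24 spleens (permutation test by sign flips, p = 1e-05, the smallest possible, adjusted p = 5.67e-05). Both ends of the distribution moved. Loops of 8 residues or fewer made up 11.3% ± 1.44 of IGHD and 14.4% ± 1.56 of IGHM clonotypes (SD, n = 24), lower for IGHD in 24 of 24 spleens. Loops of 15 or more made up 14.8% ± 1.72 and 12.4% ± 1.40, higher for IGHD in 24 of 24. The shortest mean IGHD loops, 11.21 and 11.28 residues, were those of NC mouse 2 and NOD-FMT mouse 2, where IGHM loops were short too, at 10.98 and 10.96. Between NOD-FMT and PBS-T the IGHD mean differed by -0.03 residues (exact permutation test, p = 0.720), a value whose sign turned without NOD-FMT mouse 2 or PBS-T mouse 2.

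The J genes that IGHD clonotypes used differed from those of IGHM, and 4 of 4 passed the threshold (100% called). IGHJ1, the J gene nearest the D segments, was used by 12.3% ± 0.569 of IGHD and 15.7% ± 0.535 of IGHM clonotypes (SD, n = 24) and was lower in 24 of 24 spleens. IGHJ2 was used by 37.4% ± 1.47 and 33.5% ± 1.08 and was higher in 24 of 24. The log2 ratios were -0.35 and 0.16, each with an adjusted p of 2e-05 by permutation. IGHJ3 was lower in 20 of 24 spleens, 23.2% against 24.5%, with a log2 ratio of -0.08 (permutation test, adjusted p = 4e-05). IGHJ4 was higher in 19 of 24, 27.1% against 26.3%, with a log2 ratio of 0.04 (permutation test, adjusted p = 0.00721), a call lost over unmutated sequences (adjusted p = 0.0583). Shares of J genes sum to 100%, so a rise of 1 is a fall of the others.

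V gene use separated IGHD from IGHM broadly. Of 86 V genes with at least 0.1% of the clonotypes of IGHD or of IGHM, 72 differed (83.7% called), 36 higher in IGHD (41.9%) and 36 lower (41.9%). The 81 that reached this share in both isotypes gave 34 and 33, while the 2 that reached it in IGHD alone were higher and the 3 that reached it in IGHM alone (IGHV1-75, IGHV2-4 and IGHV7-4) were lower. The families differed in direction. IGHV1, the large J558 family, made up 65.0% ± 2.29 of IGHD and 60.4% ± 2.48 of IGHM clonotypes (SD, n = 24) and was higher in 24 of 24 spleens, with 23 of its 43 genes tested higher and 10 lower. IGHV6 made up 1.9605% ± 0.425 and 4.18% ± 0.660, IGHV10 1.40% ± 0.246 and 2.62% ± 0.383, and IGHV7 0.797% ± 0.0977 and 1.93% ± 0.236. These 3 families were lower in 24 of 24 spleens, and 2 of 2, 2 of 2 and 3 of 3 of their genes tested were lower. IGHV9 was higher in 23 of 24 spleens, 5.10% against 4.29%, and IGHV8 in 23 of 24, 4.25% against 3.48%. IGHV5 was lower in 22 of 24, 6.46% against 7.59%, and IGHV2 in 23 of 24, 5.35% against 6.15%.

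Among single genes, IGHV7-3 at chr12:114153180-114153644 was the lowest in IGHD relative to IGHM. In the 24 spleens it was used by a lowest share of 0.394%, a median of 0.542% and a highest share of 0.670% of IGHD clonotypes, and by 1.16%, 1.45% and 1.85% of IGHM clonotypes. The 2 ranges did not overlap, and the ratio was 2.68-fold lower for IGHD (permutation test, adjusted p = 1.76e-05, the smallest reached). IGHV8-5, IGHV6-6, IGHV10-1, IGHV5-9 and IGHV5-6 were 2.39-, 2.34-, 2.33-, 2.22- and 2.16-fold lower, each in 24 of 24 spleens and with the same adjusted p by permutation. For IGHV10-1 and IGHV5-9 the ranges did not overlap either.

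IGHV15-2 at chr12:114564578-114565012 was the highest, 2.02-fold, with 0.270% ± 0.0831 of IGHD and 0.124% ± 0.0332 of IGHM clonotypes (SD, n = 24), higher in 23 of 24 spleens (permutation test, adjusted p = 1.76e-05). IGHV9-2, IGHV1-5 and IGHV1-63 were 1.70-, 1.67- and 1.44-fold higher with the same adjusted p. IGHV1-49 (0.131% of IGHD and 0.0706% of IGHM clonotypes) and IGHV1S137 (0.157% and 0.0972%) passed the minimum share in IGHD alone, so that their place among the highest genes is not independent of it. IGHV1S137 has no entry under that name in GENCODE M21. Of the 5 V genes that IGHD used most, IGHV1-26 led with 8.63% ± 1.01 of clonotypes against 7.59% ± 0.839 in IGHM (SD, n = 24), higher in 24 of 24 spleens. IGHV1-64 was at 3.93% against 3.77% (higher in 20 of 24), IGHV9-3 at 3.29% against 2.82% (22 of 24) and IGHV1-69 at 3.08% against 2.56%, all higher by the same test, while IGHV1-55 was lower, at 3.20% against 3.55%. With counts of at least 2, where a spleen held 4 to 1299 IGHD clonotypes, only 35 of the 72 V calls remained in their direction, and the differences of 7 genes named here as higher were negative, past the threshold for IGHV1-63, IGHV1-64, IGHV9-2 and IGHV9-3 and not for IGHV1-26, IGHV1-5 and IGHV1-69. At a median of 47.5 IGHD clonotypes many V genes have none in a spleen, and the added constant of 0.01 then sets a low value. This setting therefore cannot decide the direction of a gene. Genes of the IGHV1 family are alike in sequence, so shares of its single genes are less certain than that of the family.

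**Figure D5:**
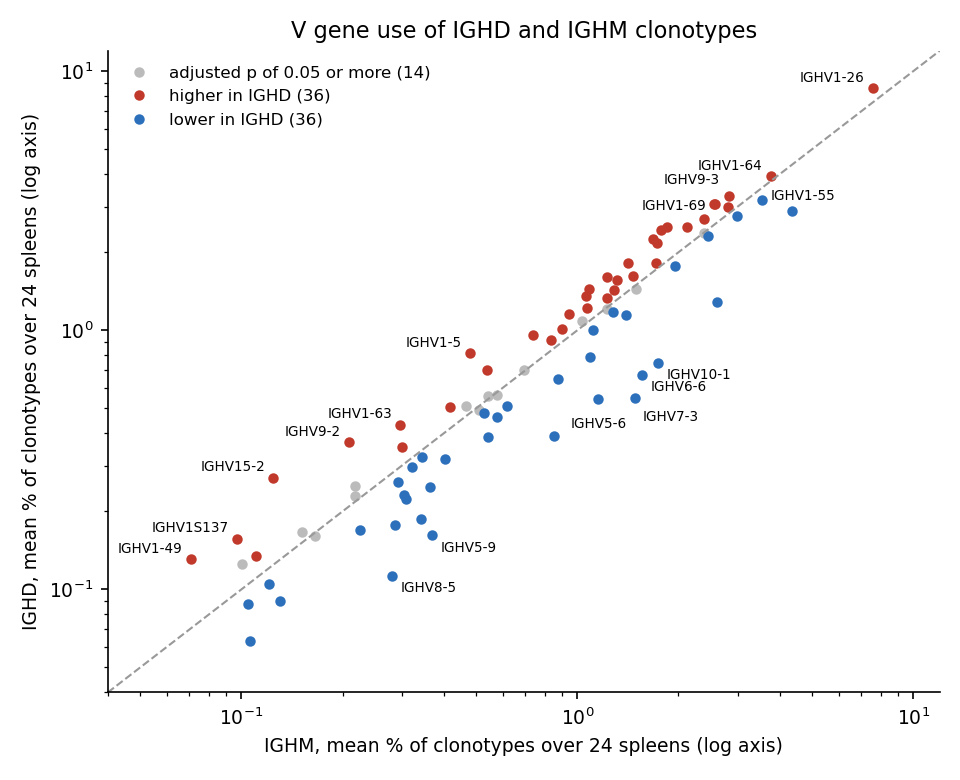
For each of the 86 V genes tested, the mean percent of IGHD clonotypes (vertical) is plotted against the mean percent of IGHM clonotypes (horizontal) over 24 spleens, both on log axes, and the dashed line marks equal use. Red points were higher and blue points lower in IGHD at an adjusted p under 0.05, and gray points did not pass. The named genes lie farthest from the line or at the top right, where IGHV1-26 is at 8.63% of IGHD clonotypes.

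IGHV11 and IGHV12 genes are known from B-1 cells, which carry little surface IgD. All 3 genes checked were under the minimum share and had no test. IGHV11-2 was used by 0.0813% ± 0.0193 of IGHD and 0.0650% ± 0.0162 of IGHM clonotypes (SD, n = 24), higher in IGHD in 17 of 24 spleens. With no removal of sequences shared between mice it was at 0.104% and 0.0709%, higher in 23 of 24. IGHV12-3 was at 0.0663% and 0.0626%, and IGHV11-1 at 0.00436% and 0.00412%.

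Between the treatment groups no V gene of IGHD clonotypes passed the threshold. Of 83 tested in the spleen, 0 had an adjusted p under 0.05 (0% called) and 3 an unadjusted p under 0.05 by the exact permutation test. IGHV1-49 had the smallest, with 0.111% ± 0.0225 in NOD-FMT (SD, n = 10) and 0.151% ± 0.0329 in PBS-T mice (SD, n = 9; exact permutation p = 0.00743, adjusted p = 0.616). The other 2 were IGHV3-8 and IGHV1-59, both with a higher mean in NOD-FMT mice and an adjusted p of 0.974.

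Few IGHD clonotypes were seen as IGHM in the same spleen, although the cell makes both from 1 rearrangement. The share was 3.39% ± 1.62 (SD, n = 24), with a lowest value of 1.13%, a median of 3.23% and a highest value of 8.54%, the last in NOD-FMT mouse 3, the deepest library. After thinning to 71859 counts it ranged from 0.546% to 4.97%. Identical V(D)J sequences were rarer still, at 0.653% to 4.95% of IGHD sequences. Between 91.2% and 98.8% of the IGHD clonotypes of a spleen were seen with no other isotype. Sharing with a switched isotype was 0.875% ± 0.754 for IGHD and 1.68% ± 0.657 for IGHM clonotypes (SD, n = 24). A spleen held a mean of 27654 IGHD and 301303 IGHM counts, and the 2 were not compared at equal counts. The share also seen as IGHM was 3.93% ± 2.11 in NOD-FMT (SD, n = 10) and 2.81% ± 1.1996 in PBS-T mice (SD, n = 9), a difference of 1.11 points within the spread (exact permutation test, p = 0.185). After thinning to equal total counts the difference was 0.120 points (exact permutation test, p = 0.822). The thinned spleens still held from 2646 to 6179 IGHD clonotypes, so depth was equal in the total only.

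Most IGHD clonotypes were detected as IGHD in a single spleen, where nearly all had 1 count. Of 642989 distinct IGHD clonotypes of the spleens, 631703 (98.2%) were found as IGHD in 1 spleen and 11286 (1.76%) in 2 or more, with 9 spleens as the most. Identical sequences found in 3 or more mice had been removed, which itself limits sharing. The 3 shown here recur across mice, and 2 of them use IGHV11-2 with IGHJ1. The third was 1 of 3 clonotypes seen in 8 spleens and had the most counts of these. Capitals mark HCDR3 bases that varied between the nucleotide versions seen as IGHD.
IGHV11-2, IGHJ1, 11 residues: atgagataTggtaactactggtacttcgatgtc
IGHV1-26, IGHJ2, 5 residues: gcAAgAggGgactac
IGHV11-2, IGHJ1, 12 residues: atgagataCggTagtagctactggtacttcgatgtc
They were seen as IGHD in 9, 9 and 8 spleens and as IGHM in 22, 11 and 22. None of the 3 was seen as IGHD in an LG. With no removal of shared sequences they were seen as IGHD in 22, 16 and 22 spleens, and the first had 155 IGHD counts in place of 13. The most shared clonotype was then another of IGHV11-2 and IGHJ1 with 11 residues, seen in 23 spleens with 337 counts. With the removal, the 3 clonotypes shown occurred in all 3 groups, in 4 NOD-FMT, 3 PBS-T and 2 NC spleens for the first.

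In no spleen did 1 clonotype hold over 1% of the IGHD counts. The largest by that share used IGHV2-9-1 and IGHJ2 and had 30 of 3036 IGHD counts (0.988%) in PBS-T mouse 6.
IGHV2-9-1, IGHJ2, 14 residues: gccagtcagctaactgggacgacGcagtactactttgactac
It is shown because it was the same clonotype that held 28038 IGHM counts in that spleen, so IGHD was 0.107% of its unswitched counts against 4.69% for the library. In the LG, only PBS-T mouse 5 had the 100 IGHD counts set as a minimum, and its largest clonotype, of IGHV1-64 and IGHJ4, had 5 counts and was seen with no other isotype there. With no such minimum the largest LG clonotype had 7 of the 11 IGHD counts of NOD-FMT mouse 2 (63.6%).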

How the data were processed

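BCR libraries from the spleen and LG of 24 mice were analysed. Per the study's methods, the authors reverse-transcribed RNA with CH1 primers carrying 12 UMI bases, merged reads with PEAR, filtered them by quality, built UMI consensus sequences with Clustal Omega without singletons and annotated them with IMGT and IgBLAST. The deposited counts are consensus sequences per unique sequence, not normalized. The deposited fraction of the library was read as a check, and the deposited number of V mismatches gave the mutation classes. The germline release was not given in the sources used here.

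Within a tissue, nucleotide sequences that occurred identically in at least 3 mice were removed, which took 1.79% to 2.77% of IGHD counts per spleen, at most 0.215% per LG and 0.143% to 66.6% of all counts per library. The study also describes a removal of sequences identical between mice, and the deposited totals equal its totals before that step. For the spleen of PBS-T mouse 6 and the LG of PBS-T mouse 5 it reports far smaller losses than the 66.6% and 39.8% found here. Why they differ was not tested, and the shares given here depend on this removal. A count of 0 would allow 3 counts of the total. Groups were compared over mice by exact permutation (92378 divisions for 10 against 9 mice), and paired values by sign flips, with a threshold of 0.05 and Benjamini-Hochberg adjustment over 17 single values, and apart over V and over J genes. V genes needed a mean of 0.1% of clonotypes in IGHD or in IGHM. The V genes named were the 6 highest and 6 lowest against IGHM with 1 direction in at least 22 spleens, the 5 most used, up to 5 between groups and 3 B-1 genes. The clonotypes named were the 3 seen in most spleens and the largest of each tissue. Members and lists were chosen with earlier results of these data known. Alternatives were other removal rules, clonotypes by nucleotides, counts of at least 2, unmutated sequences, thinning, other scales and minimum shares, a replicate block, merged libraries apart and each mouse left out. The V gene tests were run on simulated spleen libraries with known changes, and the group test of a single value on normally distributed values. LG libraries with few IGHD counts were not simulated. Python 3.11.15, NumPy 2.4.6, pandas 2.3.3 and SciPy 1.17.1 were used.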

Additional observations from a re-analysis of the deposited data

Results flagged for a closer look

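IGHD values that lay far from the rest of their group by Dixon's ratio were found in 7 of 27 sets checked, each 1 measure in 1 group and tissue. A rate of about 1 in 20 would hold for independent sets of normally distributed values. The sets here are overlapping measures of the same libraries, and shares were taken in percent and not on the log scale, so that rate is only a rough guide. In the LG, PBS-T mouse 5 had an IGHD share of counts of 0.214%, with 0.0374% the next highest of its group, and a share of unswitched counts of 7.80%, with 3.83% next. NC mouse 4 had an LG share of counts of 0.0740%, with 0.0223% next. In the spleen, the unmutated share of IGHD was 65.7% in NOD-FMT mouse 2, with 81.9% the next lowest, and 67.6% in NC mouse 2, with 87.1% next. The same spleens had the shortest mean IGHD HCDR3, 11.28 residues in NOD-FMT mouse 2 with 11.65 next and 11.21 residues in NC mouse 2 with 11.74 next. The difference of IGHD between LG and spleen differed between NOD-FMT and PBS-T mice by -1.37 on the scale of log2(percent + 0.01), tested by permutation of the group labels. This value combines the LG and spleen group differences and is not independent of them.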

How the results depend on the processing

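In this section single values were judged by the unadjusted p against the threshold of 0.05, and V and J genes by the adjusted p. The differences between LG and spleen and between IGHD and IGHM in mutation and HCDR3 length kept their direction and stayed past the threshold under every alternative run. The J and V counts stayed within 1.5 times, at 3 to 4 J genes (3 over unmutated sequences and with counts of at least 2, where IGHJ4 was not called) and 49 to 89 V genes, but with counts of at least 2, where a spleen held 4 to 1299 IGHD clonotypes, 35 of the 72 V calls remained in their direction and the named IGHV1-26 (-0.65), IGHV1-5 (-1.48), IGHV1-63 (-2.42), IGHV1-64 (-2.75), IGHV1-69 (-1.41), IGHV9-2 (-1.97) and IGHV9-3 (-2.39) turned negative. V genes without an IGHD clonotype in a spleen take a low value from the added constant there, so this setting cannot decide their direction. With counts of at least 2 the group differences were 0.727 for the spleen share of counts and 0.849 for that of clonotypes, both then past the unadjusted threshold, and 0.0631 for the share of unswitched counts, -0.289 and -0.808 for the LG shares of counts and clonotypes and -0.0603 for NOD-FMT against NC in the LG, which no longer were past the unadjusted one. In the same setting clonotypes also seen as IGHM came to -9.13 and spleen NOD-FMT against NC to 0.289, both turned in sign. Over sequences with a count of 1, the share of unswitched counts in the spleen was 2.74 and not called, and spleen NOD-FMT against NC (0.128) and LG PBS-T against NC (-0.248) turned, the latter also with removal of sequences in 2 or more mice (-0.505). Differences of mean ranks called the spleen share of counts (5.28). Without the 3 spleens of most mutated IGHD it was called at 0.381, the spleen share of clonotypes at 0.238 and PBS-T against NC at -0.498. LG shares not divided by the total (-1.43, and -1.41 against NC), LG libraries not marked merged (-1.10 for counts, -1.29 for clonotypes, -1.18 for the tissue difference), merged ones for clonotypes (-1.98) and the linear scale of the tissue difference (-1.26) lost their calls, and the LG share of unswitched counts turned to 0.0542 in merged libraries. The cause was not tested.

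Leaving out 1 mouse gave, for NOD-FMT against PBS-T in the spleen, 0.253 to 0.369 for the share of counts, 0.141 to 0.2804 for clonotypes, 1.76 to 2.37 for unswitched counts, -2.27 to 1.59 for the unmutated share, -0.0668 to 0.0208 for HCDR3 length and 0.602 to 1.41 for clonotypes also IGHM. The spleen share of counts was called without NOD-FMT mouse 2 or 7 or PBS-T mouse 4 or 5. In the LG the ranges were -1.20 to -0.696 for counts, -1.82 to -1.37 for clonotypes and -1.27 to -0.297 for unswitched counts. Against NC, NOD-FMT ran from -0.168 to 0.0600 in the spleen and from -1.16 to -0.581 in the LG, and PBS-T from -0.479 (called, without NC mouse 2) to -0.251 in the spleen and from -0.274 to 0.476 in the LG. The tissue difference ran from -8.19 to -8.001 and its group difference from -1.57 to -1.06, the V genes called from 72 to 76, and the IGHD minus IGHM differences from 10.5 to 12.25 points and from 0.312 to 0.328 residues.

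NOD-FMT and PBS-T mice share replicate numbers. Residuals of IGHD V gene use in the spleens of same-numbered mice correlated from -0.428 to 0.597 (median 0.158) over 9 pairs, 5 of them over 0.1. Of the PBS-T mice, 2 correlated best with the NOD-FMT mouse of their own number. These values cannot decide whether mice of 1 number share more than the number. With the replicate block the spleen share of counts differed by 0.291, that of unswitched counts by 1.98, the LG share of counts by -1.07 and the tissue difference by -1.37. The block changed no call, with 0 V genes between groups and 4 at an unadjusted p under 0.05 (3 without the block).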
